A study of Mus musculus with 64 samples.

Results

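The genes described here are 39 of the core genes of actin filament turnover, and they were picked by name from the 18432 genes of the expression table: 10 subunits of the Arp2/3 complex, the cofilin family, the LIM kinases and slingshot phosphatases that act on it, profilins, thymosins, formins, Ena/VASP proteins, PAKs, small GTPases, nucleation promoting factors, filament capping and severing proteins, and both cytoplasmic actins. All 39 were found by symbol. The libraries were made from whole tissue of the frontal cortex and the hippocampus. The mice were Cyfip2 +/R87C, which carry a knock-in Arg87Cys change in 1 copy of Cyfip2 (KI), and their wild-type littermates (WT), all on the C57BL/6N background and otherwise untreated. Tissue was taken at 4 ages, given as postnatal week (PWK): 1, 7, 14 or 28. This gives 16 groups of 4 libraries, 64 in all. The knock-in is germline, so all cells carry it, and Arg87Cys is a variant known from early-onset epilepsy. The comparison of KI with WT at each age asks how expression differs over the period in which these mice develop epilepsy. The values are normalized read counts per gene. The labels give only a number for each replicate and do not say whether the libraries of a group come from separate mice. The p-values set a difference between groups against the spread between these 4 libraries a group, so what they say beyond these libraries depends on that.

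Actin exists as single molecules and as filaments, and cells remodel their shape by moving actin between both pools. The Arp2/3 complex starts a new filament as a branch on the side of an old one, and it is switched on by nucleation promoting factors, among them the WAVE complex of which CYFIP2 is a subunit. Formins and Ena/VASP proteins lengthen unbranched filaments, capping proteins close the growing end, and cofilin and destrin sever old filaments. Thymosins hold actin monomers in reserve and profilins deliver them to growing ends. In neurons these proteins shape growth cones, dendritic spines and presynaptic terminals.

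Several of the genes come in closely related copies, and for the abundant pairs the sequence shows how far reads can be told apart. The coding sequences of Actb and Actg1, which encode the cytoplasmic beta and gamma actins, were identical at 88.7% of 1128 positions in the GENCODE annotation of GRCm38. Their first 60 coding bases are shown with the 9 differing bases in capitals.
Actb: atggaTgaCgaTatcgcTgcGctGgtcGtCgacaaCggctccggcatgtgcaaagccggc
Actg1: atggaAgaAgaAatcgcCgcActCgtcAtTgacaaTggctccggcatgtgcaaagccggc
The stretch shown encodes the amino-terminal end, where the actin isoforms are known to differ, and some of the 9 leave the amino acid unchanged. Its last bases hold no difference. Over the whole coding sequence 1000 of the 1128 positions were identical, so further differences lie beyond the stretch shown. The thymosins differed more, with 70.4% of 135 positions shared, and their whole coding sequences are shown with the 40 differing bases in capitals because Tmsb10 changed in every late comparison and Tmsb4x in 1.
Tmsb4x: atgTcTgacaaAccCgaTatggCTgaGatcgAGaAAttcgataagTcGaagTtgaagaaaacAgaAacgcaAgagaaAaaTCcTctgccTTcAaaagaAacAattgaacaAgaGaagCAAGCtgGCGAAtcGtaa
Tmsb10: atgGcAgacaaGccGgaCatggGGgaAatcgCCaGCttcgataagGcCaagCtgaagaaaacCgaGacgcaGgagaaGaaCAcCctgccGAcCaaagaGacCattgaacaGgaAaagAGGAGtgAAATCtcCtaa
The other pairs shared 61.1% (Limk1 and Limk2) to 76.3% (Actr3 and Actr3b) of their aligned coding positions. Windows as long as a sequencing read of the study that occur unchanged in another annotated gene made up 50.9% of the longest Actg1 transcript, 22.1% of that of Actr3 and 21.0% of that of Tmsb10. The genes sharing the most windows were Gm12715 and Gm8399 for Actg1, Gm8822 and Gm15899 for Actr3, and Gm9844 and Gm3788 for Tmsb10. That share was 8.43% for Arpc4, 4.82% for Rhoa, 3.39% for Arpc1b, 1.04% for Actb and 0.311% for Cfl1, and 0 for the other 31 genes. The values of Actg1, Actr3 and Tmsb10 depend on how the authors' quantification divided shared reads.

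Normalized totals lay between 29.2 and 32.6 M reads per library (median 31.1 M), and the depth before normalization is unknown. Of the hippocampal markers, Prox1, Zbtb20, C1ql2, Lct and Spink8 were higher in hippocampus than in cortex at all 4 ages, and of the cortical ones Cux2, Rorb and Lamp5 were higher in cortex. Other markers went against their lists: Fezf2 was alike in both regions, Tshz2 higher in hippocampus, and at PWK 1 Tdo2 of the hippocampal list averaged 97.3 in hippocampus and 106 in cortex (higher in hippocampus from PWK 7) and Ddit4l of the cortical list 460.0 and 192 (higher in cortex from PWK 7). The edited gene, Cyfip2, is no check of the labels, since a missense change need not alter its mRNA level: it was called only in PWK 28 cortex (log2 fold change -0.44, SE 0.087, limma adjusted p = 0.0058). One library stood apart, replicate 1 of the KI hippocampus at PWK 14: its mean correlation with its own group was 0.967, the lowest of the 64, where the median was 0.986. The summed level of 10 microglial markers was 42598 in it and 13577 to 20684 in the other 3 KI libraries of that group, that of 8 astrocyte markers 338279 against 212022 to 221842, and that of 6 excitatory neuron markers 113005 against 143653 to 181311. For some of the genes named at that age, values are also given without this library.

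In WT tissue the 39 genes together took 1.02% of all normalized reads in PWK 1 cortex and 0.670%, 0.653% and 0.679% at PWK 7, 14 and 28. In hippocampus the shares were 1.03%, 0.806%, 0.773% and 0.774%. Exon length here and below is that of all annotated exons of a gene merged. It can exceed the longest protein-coding transcript, as for Arpc1b (5115 and 3105 bases), which lowers the value per kb. Per kb of exon, and averaged over the 8 WT groups, the most abundant were Actg1 (14004 normalized counts per kb), Actb (12269), Tmsb4x (11836) and Cfl1 (7193), followed by Pfn2 (3654), Arpc2 (2826), Cdc42 (2780), Dstn (2779), Pak1 (2490) and Tmsb10 (2260). The least abundant were Vasp (133), Ssh2 (117), Ssh1 (104), Arpc1b (83.5) and Diaph2 (83.0). Both actins headed the order, and 2 regulators, Cdc42 and Pak1, were among its first 10.

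Between PWK 1 and PWK 7 the largest change of these genes in WT cortex was in Tmsb10, a thymosin known from immature neurons, which went from 7736 ± 745 to 1812 ± 178 normalized counts (mean ± SD, n = 4; log2 fold change -2.09, SE 0.082, adjusted p = 1.08e-09, limma). Lower values prevailed: in that comparison 37 of the 39 genes were called, 6 higher and 31 lower at PWK 7, against 65.3% of all genes tested (32.5% higher and 32.7% lower). Here and throughout, called means a Benjamini-Hochberg adjusted p under 0.05 over all genes tested in limma, and fold changes are on the scale log2(value + 1). Also lower were Arpc5 (-1.69, SE 0.053, adjusted p = 2.24e-10), Actg1 (-1.29, SE 0.052, adjusted p = 1.24e-09) and Vasp (-1.20, SE 0.079, adjusted p = 7.18e-08). Arpc5 is a small Arp2/3 subunit, and VASP protects growing filament ends. The rises were in Gsn, a calcium-activated severing protein abundant in oligodendrocytes (1.64, SE 0.077, adjusted p = 4.5e-09), Wasl, which encodes the Arp2/3 activator N-WASP (1.37, SE 0.041, adjusted p = 1.76e-10), Pak1, a kinase activated by Rac and Cdc42 (1.30, SE 0.041, adjusted p = 2.48e-10), and the formin Diaph2 (0.62, SE 0.077, adjusted p = 1.96e-05). The median log2 fold change of the 39 genes was -0.50, where that of all genes tested was 0.01.

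In hippocampus 31 of 39 genes were called (11 higher, 20 lower) against 61.3% of all genes (30.9% higher and 30.4% lower). Tmsb10 fell from 6697 ± 234 to 1070.0 ± 119 (log2 fold change -2.65, SE 0.069, adjusted p = 2.53e-10), and Vasp (-1.07), Actg1 (-0.98) and the Ena/VASP gene Evl (-0.96) were next. Gsn (2.18), Wasl (1.42), Pak1 (0.76) and Diaph2 (0.70) rose on the log2 scale, with adjusted p between 3.21e-10 and 4.32e-07 in limma. The related actins and thymosins are set side by side. Actg1 exceeded Actb at PWK 1 in cortex (62839.8, 69634, 68042 and 69438 against 40386, 44976, 43599 and 43478 normalized counts), and by PWK 7 both were near the same level (25919, 27582, 27368 and 29287 against 25125, 25915, 27116 and 27327), with exon lengths of 2658 and 2679 bases. In PWK 7 hippocampus Actb was the higher of the pair, at 34278, 38455, 34244 and 35875 and Actg1 at 28723, 33749, 29663 and 30384. Tmsb4x, the more abundant thymosin, went from 17667 ± 639 to 11744 ± 471 in cortex and from 22872 ± 713 to 19327 ± 627 in hippocampus.

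**Figure D1:**
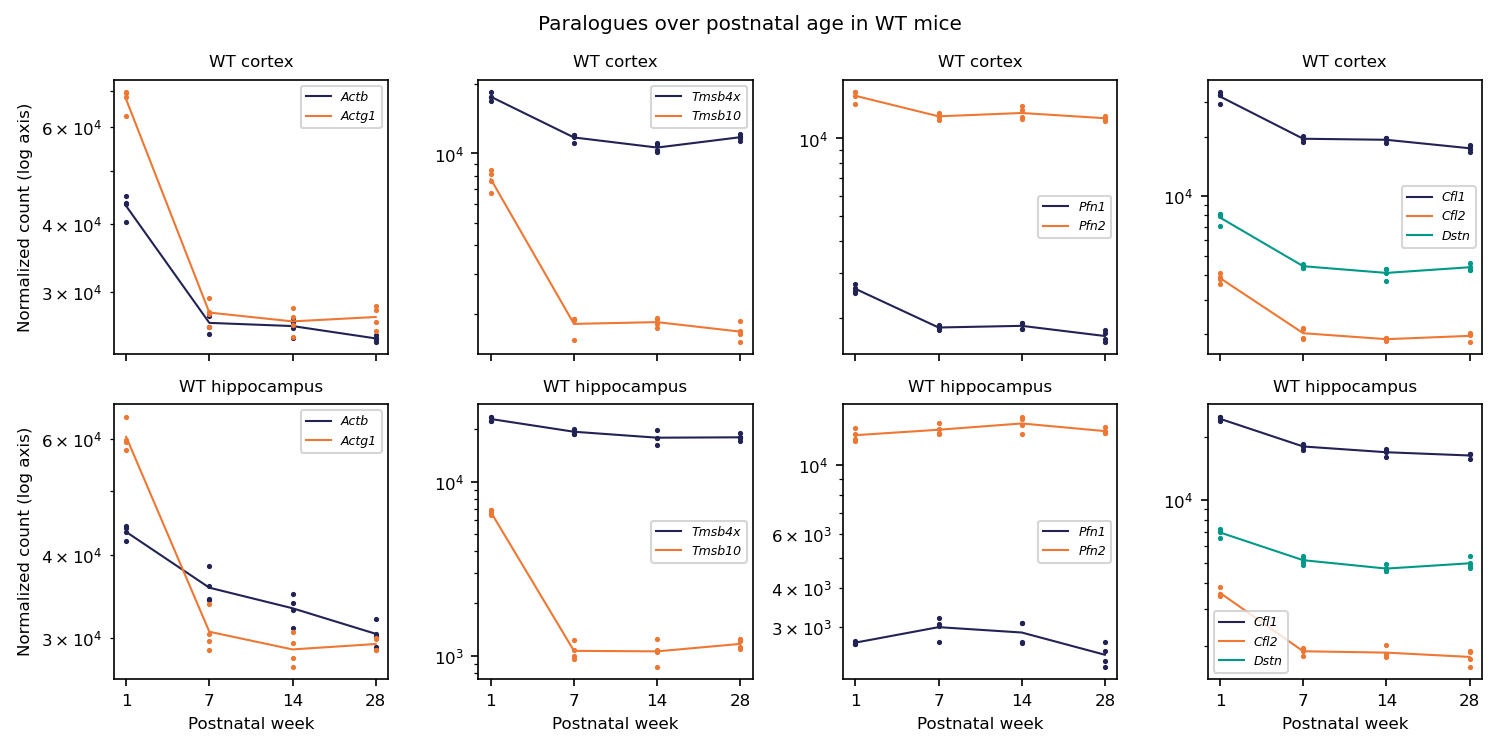
Normalized counts (log axis) of the actin, thymosin, profilin and cofilin family genes in WT cortex and hippocampus at PWK 1, 7, 14 and 28, with the 4 libraries of each group as points and their means joined by lines. Tmsb10 drops from 7736 to 1812 in cortex and from 6697 to 1070 in hippocampus between PWK 1 and PWK 7, while Pfn2 stays between 11988 and 14652 in cortex.

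From PWK 7 to PWK 28 the WT changes were smaller. In cortex 10 of 39 genes were called (5 higher, 5 lower) against 22.2% of all genes (10.9% higher, 11.4% lower), and in hippocampus 10 (0 higher, 10 lower) against 14.7% (6.35% higher, 8.38% lower). Arpc1b fell in both regions (-0.57, SE 0.12, adjusted p = 0.00536 in cortex and -0.47, SE 0.12, adjusted p = 0.0255 in hippocampus), as did Gsn (-0.43 and -0.36) and Arpc4 (-0.24 and -0.36). Actr3b fell by 0.30 on the log2 scale in cortex, and Pfn1 by 0.30 in hippocampus. The cortical rises were in Arpc5 (0.44), Actr3 (0.18), Arpc3 (0.16) and Ssh2 (0.16). The hippocampal count was 5 without replicate 1 of the PWK 28 libraries, where calls over all genes went from 2709 to 1724. In hippocampus the call of Arpc1b was lost without any 1 of 4 of the 8 libraries (adjusted p up to 0.0682). The call of Ssh2 was lost in 3 of 9 other fits (adjusted p up to 0.0874) and without any 1 of 5 of the 8 libraries (up to 0.108).

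Most of the 39 genes differed between the regions in adult WT tissue, and more were higher in hippocampus than in cortex. At PWK 28, 29 of 39 genes were called between WT hippocampus and WT cortex, 24 of them higher in hippocampus, against 37.8% of all genes (18.8% higher and 19% lower). Arpc5 was at 4179, 4705, 4250.0 and 4415 in hippocampus and 2485, 2706, 2894 and 2774 in cortex (log2 fold change 0.69, SE 0.055, adjusted p = 1.3e-06, limma). Cttn, which encodes the branch stabiliser cortactin, had 4802, 4909, 4855 and 4805 against 2892, 3239, 3153 and 2892 (log2 fold change 0.67, SE 0.045, adjusted p = 3.42e-07), and no library of one region reached those of the other for either gene. Tmsb4x (0.61) and Pfn1 (0.51) were also higher in hippocampus. Pak1 (-0.86), the cofilin kinase Limk1 (-0.73), Evl (-0.53) and Tmsb10 (-0.51) were higher in cortex. In the cortical libraries Pak1 stood at 14486, 15684, 15127 and 15092 and in the hippocampal ones at 8231, 8566, 7821 and 8719.

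At PWK 7 there were 27 calls (22 higher in hippocampus) against 40.8% of all genes (20.4% in either direction), led by Arpc5 (1.17), Arpc2 (0.85), Cttn (0.78) and Tmsb4x (0.72) on the higher side and Tmsb10 (-0.76), Limk1 (-0.74), Pak1 (-0.71) and Evl (-0.35) on the lower. At PWK 14 there were 24 (19 higher) against 34.6% (17% higher, 17.6% lower), with Arpc5 at 1.10, Tmsb4x at 0.75, Arpc2 at 0.73 and Pfn1 at 0.62, and with Tmsb10 at -0.81, Limk1 and Pak1 at -0.73 each and Evl at -0.45. At PWK 1 the pattern was another one: 19 genes were called, 6 higher and 13 lower in hippocampus, against 34.7% of all genes (16.1% higher, 18.6% lower). The split depended on scaling, since 12 were higher and 7 lower after scaling to equal totals. Evl (-0.46), Gsn (-0.42), Cfl1 (-0.38) and Limk2 (-0.26) were lower and Tmsb4x (0.37), Wasl (0.26), the formin Fmnl2 (0.21) and Diaph1 (0.17) higher in hippocampus. Arpc5 at PWK 1 was 6186, 6435, 6206 and 6441 in hippocampus and 5809.8, 6882, 6519.9 and 6631 in cortex, which overlap (log2 fold change -0.03, adjusted p = 0.702). Diaph1 at PWK 1 is a weak call, lost in 4 of 9 other fits and without any 1 of 6 of the 8 libraries (adjusted p up to 0.165).

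**Figure D2:**
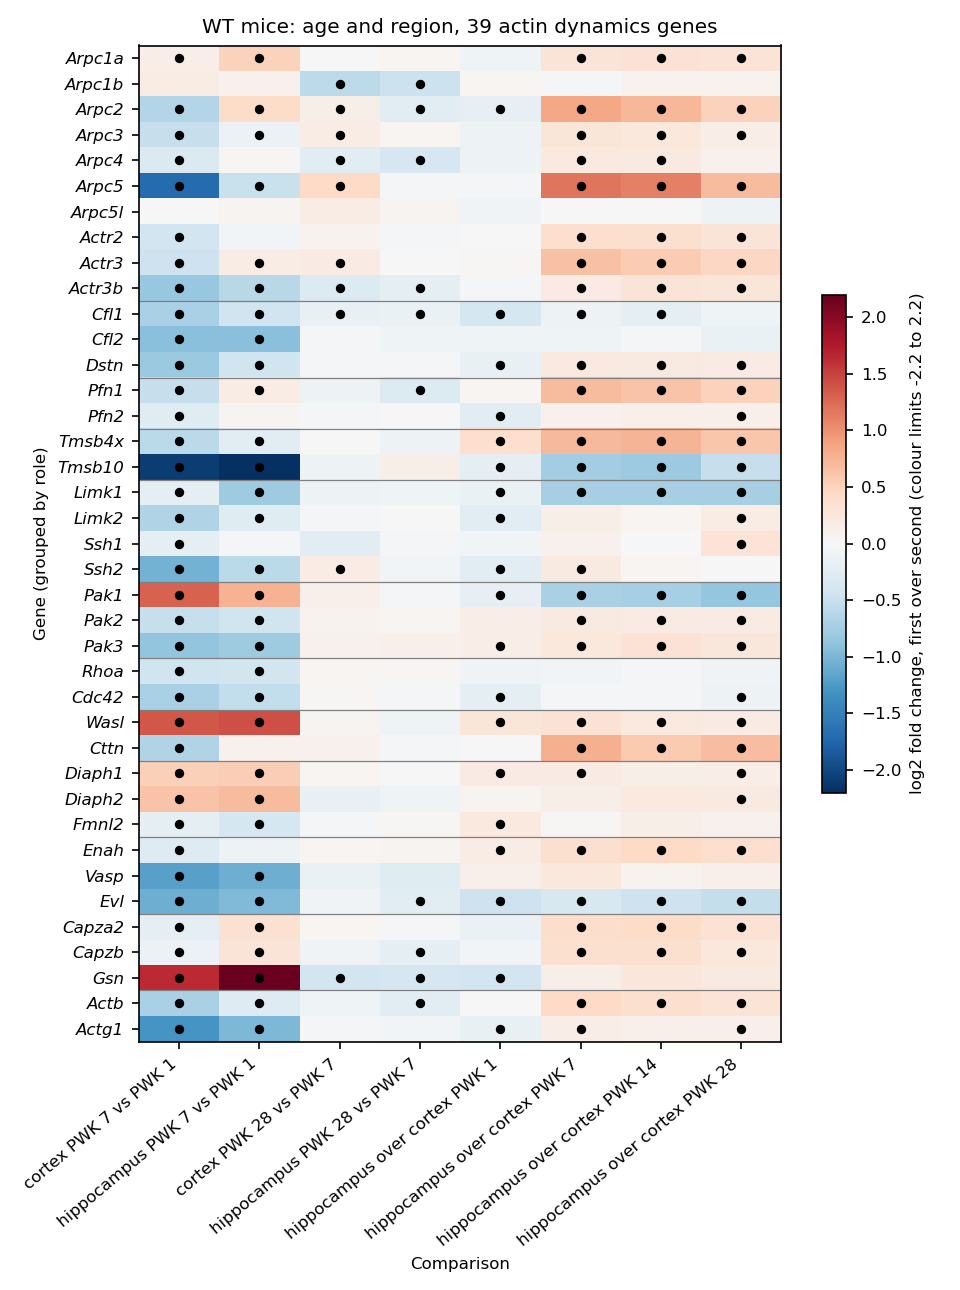
Log2 fold change (colour, limits -2.2 to 2.2) of each of the 39 genes in the 8 comparisons among WT libraries, between ages and between regions; black dots mark an adjusted p under 0.05 (limma, 4 libraries a group). Most of the cortical column for PWK 7 against PWK 1 is blue (31 genes lower), and Arpc5, Tmsb4x and Pfn1 are red in the hippocampus against cortex columns from PWK 7.

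At PWK 1 and PWK 7 none of the 39 genes passed the adjusted test between KI and WT. Few genes of the whole table did: 0.00546% in PWK 1 cortex, 0.00545% in PWK 7 cortex, 0.0109% in PWK 1 hippocampus and 0.0218% in PWK 7 hippocampus. At an unadjusted p under 0.05 in limma, 3, 4, 9 and 2 of the 39 genes passed, where 5.27%, 8.05%, 5.46% and 6.22% of all genes did. The 9 in PWK 1 hippocampus were Actb, Dstn, Capzb, Actg1, Cfl1, Actr3, Arpc5, Pfn1 and Tmsb4x, and each had a higher mean in KI. Actb, the strongest of them, was at 47927, 49181, 47831 and 49076 in the 4 KI libraries and 41995, 44212, 43313 and 43994 in the 4 WT libraries (log2 fold change 0.16, SE 0.031, adjusted p = 0.685). The KI libraries lay above the WT libraries there, yet the difference did not survive the adjustment. Over the 4 early comparisons the 39 log2 fold changes lay between -0.23 and 0.19.

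At PWK 14 and PWK 28 the KI libraries had 31 calls over the 4 comparisons, 23 higher and 8 lower, from 17 of the 39 genes. No gene was called in both directions. Tmsb10 was called in all 4 comparisons, and Cfl1, Dstn, Limk2 and Diaph1 in 3 each. By comparison, 1 gene was called in PWK 14 cortex (2.56% of the 39, against 5.18% of all genes), 11 in PWK 28 cortex (28.2% against 22.2%), 6 in PWK 14 hippocampus (15.4% against 15.6%) and 13 in PWK 28 hippocampus (33.3% against 15.8%). Abundant genes are called more often: among genes with at least the mean of the least abundant of the 39, the shares were 6.64%, 28%, 20.1% and 20.2% in the same order. With 39 genes, the counts of both regions at PWK 14 and of the PWK 28 cortex were near that background. The count of the PWK 28 hippocampus was above it. That background sets only a floor, so it is not matched to the levels of the 39 genes. The genes were also chosen with earlier results of these data known, and whether chance gives such a count was not tested. Without any overlap between KI and WT libraries were 9, 18, 10 and 14 of the 39 genes, and 14.2%, 25.8%, 23.8% and 21.5% of all genes. The direction was uneven at PWK 28. In cortex 9 were higher and 2 lower (all genes 12.2% higher and 10% lower), and in hippocampus 10 were higher and 3 lower (8.92% and 6.91%). After scaling to equal totals 8 were higher and 4 lower in either region. At PWK 14 the 1 cortical gene was higher (all genes 2.48% higher and 2.7% lower), and 3 hippocampal genes were higher and 3 lower (7.64% and 7.95%). With a correction for GC content and length the hippocampal split was 2 higher and 4 lower. In whole tissue, fewer cells of a type and less RNA of a gene per cell cannot be told apart.

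**Figure D3:**
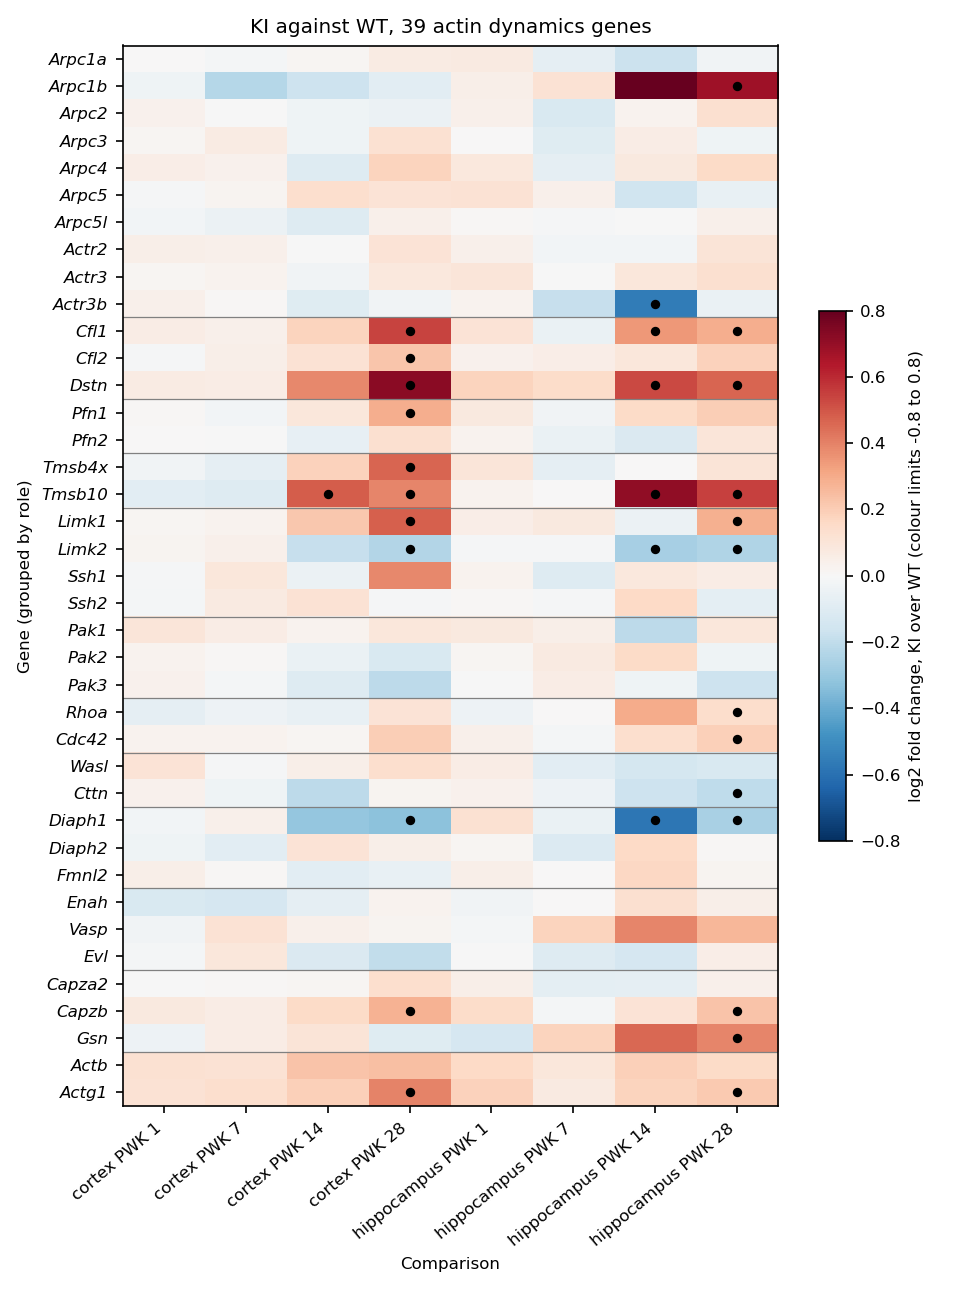
Log2 fold change of KI over WT (colour, limits -0.8 to 0.8) for the 39 genes in the 8 comparisons of age and region; black dots mark an adjusted p under 0.05 (limma, 4 libraries a group). The 4 columns of PWK 1 and 7 hold no dots, and the PWK 14 and 28 columns hold 31, 23 red and 8 blue, with Tmsb10 dotted in all 4 and Diaph1 and Limk2 blue in 3.

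Among the monomer-binding proteins, Tmsb10 (chr6:72957347-72958748, minus strand, GRCm38) was the member that rose at both late ages and in both regions. In PWK 14 cortex it had 2729, 2507, 2454 and 2639 in the 4 KI libraries and 1932, 1807, 1736 and 1903 in the 4 WT libraries (log2 fold change 0.49, SE 0.059, adjusted p = 0.00208, limma). In PWK 28 cortex it had 2068, 2312, 2339 and 2051 in the 4 KI libraries and 1870.4, 1687, 1513 and 1636 in the 4 WT libraries (log2 fold change 0.39, SE 0.078, adjusted p = 0.00625). The 4 KI libraries lay above the 4 WT libraries at both ages. In hippocampus it had 1957, 1606, 1734 and 1618 in the 4 KI libraries and 1049.8, 1252, 1080.1 and 869 in the 4 WT libraries at PWK 14 (log2 fold change 0.71, SE 0.11, adjusted p = 0.00396). At PWK 28 there it had 1634, 1631, 1748 and 1839 in the 4 KI libraries and 1224, 1095, 1124 and 1249 in the 4 WT libraries (log2 fold change 0.55, SE 0.063, adjusted p = 0.000316). Replicate 1 of the KI hippocampus at PWK 14 was the highest of its group, and without it the log2 fold change was 0.65 (adjusted p = 0.00406). The KI levels were far under the WT level of PWK 1, which was 7736 in cortex and 6697 in hippocampus. The summed level of 6 immature neuron and progenitor markers was 2971 to 5179 in KI and 2058 to 2440 in WT in the PWK 14 hippocampus, without overlap, and 1 of the 6 was called higher there. In the other late comparisons the ranges of that sum overlapped, and its part in the Tmsb10 values was not tested.

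Tmsb4x (chrX:167207093-167209315, minus strand), the thymosin of the adult brain, differed in PWK 28 cortex, where it had 18315, 14432, 16652 and 15834 in the 4 KI libraries and 12118, 11944, 11733 and 11302 in the 4 WT libraries (log2 fold change 0.47, SE 0.07, adjusted p = 0.00151, limma). No KI library was as low as a WT library. In the other late comparisons its log2 fold changes were 0.18 in PWK 14 cortex (adjusted p = 0.0928), 0.006 in PWK 14 hippocampus (adjusted p = 0.972) and 0.11 in PWK 28 hippocampus (adjusted p = 0.171). Its genotype effect at PWK 28 differed between the regions (interaction -0.36, hippocampus minus cortex, SE 0.087, adjusted p = 0.0243, limma), a call lost without any 1 of 4 of the 16 libraries (adjusted p up to 0.0577). Pfn1, the profilin found in most tissues, had 2367, 1854, 2183 and 1986 in the 4 KI libraries and 1618, 1654, 1757 and 1793 in the 4 WT libraries in PWK 28 cortex (log2 fold change 0.29, SE 0.08, adjusted p = 0.0251), with replicate 1 of KI the highest. That call was lost without WT replicate 1 or 2 or KI replicate 1 or 3 (adjusted p up to 0.0717). Pfn2, the neuronal profilin and the more abundant of the pair per kb, passed in no KI comparison and had a log2 fold change of 0.13 there (adjusted p = 0.0876).

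The cofilin family rose together at PWK 28 in cortex, 3 of 3 genes. Destrin, encoded by Dstn (chr2:143915320-143943324, plus strand), severs filaments and binds monomers, and it showed the largest difference of the 39 genes in that comparison with 8670.1, 6353, 7673 and 6374 in the 4 KI libraries and 4235, 4254, 4609 and 4389.8 in the 4 WT libraries (log2 fold change 0.72, SE 0.095, adjusted p = 0.000752, limma). Cfl1 (chr19:5490455-5495201, plus strand), which encodes the main brain cofilin, had 29398, 21637, 26962 and 24266 in the 4 KI libraries and 17829.6, 18047, 16719 and 17225 in the 4 WT libraries (log2 fold change 0.54, SE 0.085, adjusted p = 0.00184). Neither gene's groups overlapped, and replicates 1 and 3 were the higher KI libraries for both. Cfl2, better known from muscle, had 2479.8, 2124, 2360.1 and 2208 in the 4 KI libraries and 1995, 1835, 2030.4 and 2011 in the 4 WT libraries (log2 fold change 0.22, SE 0.065, adjusted p = 0.036), a call that was lost after scaling to equal totals (adjusted p = 0.0742) and without any 1 WT library or KI replicate 1 or 3 (adjusted p up to 0.1).

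In hippocampus Dstn and Cfl1 rose at both late ages. Dstn had 5861, 6719, 8406 and 6359 in the 4 KI libraries and 4589, 4705, 4920.1 and 4567 in the 4 WT libraries at PWK 14 (log2 fold change 0.53, SE 0.10, adjusted p = 0.00903, limma) and 7239, 6831, 7312 and 6181 in the 4 KI libraries and 4735, 4805, 4971 and 5394 in the 4 WT libraries at PWK 28 (log2 fold change 0.47, SE 0.062, adjusted p = 0.000707). All KI libraries were above all WT libraries, and the library that stood apart was the lowest of the KI libraries at PWK 14, so that the log2 fold change without it was 0.60 (adjusted p = 0.00232). Cfl1 had 23518, 21197, 22636 and 18709 in the 4 KI libraries and 16902, 17408, 16034 and 17214 in the 4 WT libraries at PWK 14 (log2 fold change 0.34, SE 0.079, adjusted p = 0.0193) and 20553, 19159, 20657 and 19380.2 in the 4 KI libraries and 16593, 16501, 15613 and 16480.0 in the 4 WT libraries at PWK 28 (log2 fold change 0.29, SE 0.042, adjusted p = 0.00113). Its call at PWK 14 was lost with a correction for GC content and length (log2 fold change 0.21, adjusted p = 0.121) and without WT replicate 1 or 3 (adjusted p up to 0.0608), and the call at PWK 28 held in every fit made. In PWK 14 cortex the values were of the same sign without passing: Dstn log2 fold change 0.39, SE 0.11, adjusted p = 0.0624, and Cfl1 log2 fold change 0.18, SE 0.068, adjusted p = 0.166. Dstn was at 6898 in replicate 1 and 4767 to 5007 in the other KI libraries of that group, and without replicate 1 its log2 fold change was 0.26 (adjusted p = 0.0306).

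The LIM kinases, which inactivate cofilin by phosphorylation, differed in opposite directions at PWK 28. Limk1 (chr5:134656039-134688598, minus strand) rose in PWK 28 cortex, with 2147, 2404, 2634 and 2379 in the 4 KI libraries and 1649, 1830.1, 1648 and 1733 in the 4 WT libraries (log2 fold change 0.48, SE 0.071, adjusted p = 0.00147, limma), and in PWK 28 hippocampus, with 1274, 1184, 1222 and 1359.6 in the 4 KI libraries and 1026, 1029, 1073 and 1009 in the 4 WT libraries (log2 fold change 0.28, SE 0.058, adjusted p = 0.0077). Limk2 (chr11:3344256-3409189, minus strand) fell in both: it had 2240.0, 2659, 2451 and 2678 in the 4 KI libraries and 2911, 2944, 2846 and 3072 in the 4 WT libraries in cortex (log2 fold change -0.23, SE 0.067, adjusted p = 0.0297) and 2566, 2928, 2726 and 2977 in the 4 KI libraries and 3381, 3458, 3265 and 3095 in the 4 WT libraries in hippocampus (log2 fold change -0.24, SE 0.058, adjusted p = 0.0179). The groups of each gene were apart in both regions. At PWK 14 in hippocampus Limk2 had 3313, 2969.7, 2818 and 2982 in the 4 KI libraries and 3569, 3753, 3519.6 and 3683 in the 4 WT libraries (log2 fold change -0.27, SE 0.061, adjusted p = 0.0182) and Limk1 overlapped (log2 fold change -0.049, SE 0.074, adjusted p = 0.69). The Limk2 call in PWK 28 cortex was lost without any 1 WT library or KI replicate 1 or 3 (adjusted p up to 0.0863), that in PWK 14 hippocampus without WT replicate 1, 2 or 4 (up to 0.0596) and that in PWK 28 hippocampus without WT replicate 1 or 2 (up to 0.0574). The slingshot phosphatases, which reactivate cofilin, were not called: Ssh1 in PWK 28 cortex had 715, 1088, 899.7 and 1227 in the 4 KI libraries and 684, 741, 797 and 729.7 in the 4 WT libraries (log2 fold change 0.39, SE 0.14, adjusted p = 0.0817), with a KI spread that reached into the WT values, and Ssh2 had a log2 fold change of -0.012 there.

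**Figure D4:**
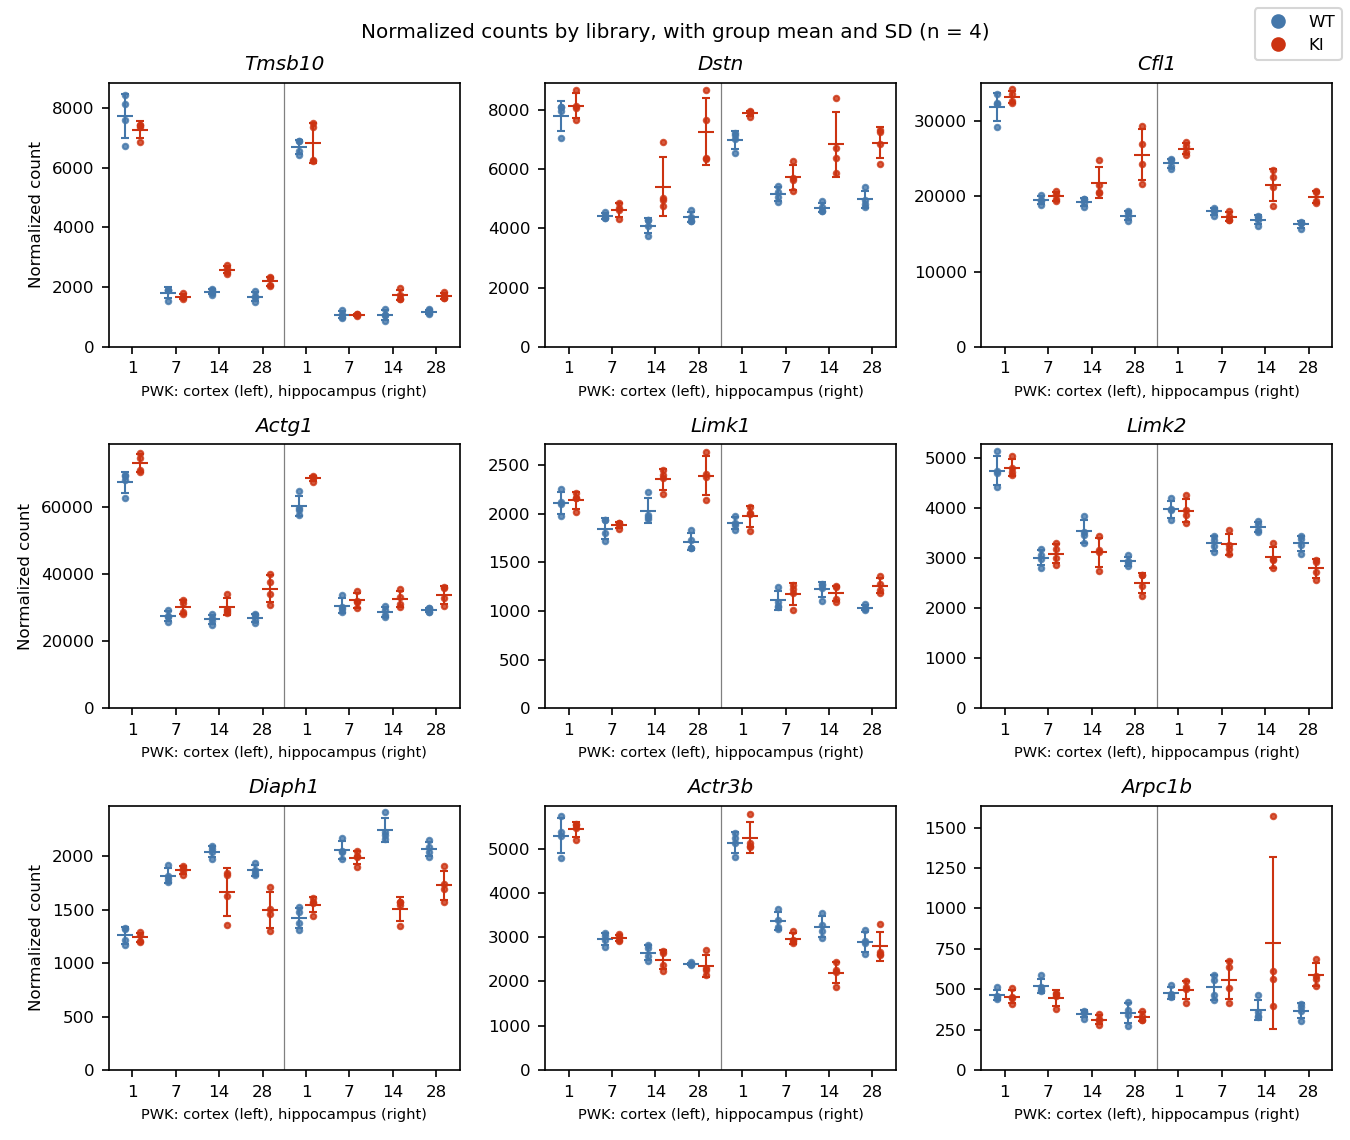
Normalized counts of Tmsb10, Dstn, Cfl1, Actg1, Limk1, Limk2, Diaph1, Actr3b and Arpc1b in every library by age, cortex on the left and hippocampus on the right of each panel; points are libraries, and bars are the mean ± SD of 4. KI and WT points part at PWK 14 and 28, for example Dstn at 6353 to 8670 against 4235 to 4609 in PWK 28 cortex and Diaph1 at 1345 to 1575 against 2161 to 2412 in PWK 14 hippocampus, and Arpc1b has 1 KI library at 1569.

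Of the actins, Actg1 (chr11:120345690-120348542, minus strand) rose at PWK 28. It had 37776, 34151, 40150.5 and 30805 in the 4 KI libraries and 25535, 28273, 27872 and 26449.7 in the 4 WT libraries in cortex (log2 fold change 0.40, SE 0.08, adjusted p = 0.00669, limma) and 36303, 33031, 35933 and 30600.0 in the 4 KI libraries and 29968, 29889.7, 28779 and 28755 in the 4 WT libraries in hippocampus (log2 fold change 0.21, SE 0.055, adjusted p = 0.0269). The hippocampal call was lost after scaling to equal totals, with a correction for GC content and length (adjusted p up to 0.152 in these fits), and without any 1 WT library or KI replicate 1 or 3 (up to 0.0752). Actb (chr5:142903115-142906754, minus strand) had KI means above WT in all 8 comparisons and was called in none. Its late log2 fold changes were 0.23 (adjusted p = 0.111) and 0.24 (adjusted p = 0.0852) in cortex and 0.19 (adjusted p = 0.157) and 0.15 (adjusted p = 0.194) in hippocampus. In PWK 28 cortex it had 32511, 28875, 32335 and 23756 in the 4 KI libraries and 24621, 25095, 24343 and 24759 in the 4 WT libraries, so that replicate 4 alone of the KI libraries lay under the WT libraries. Replicate 4 was the lowest KI library for Actg1 as well.

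The share of all normalized reads held by the 39 genes together was compared as a description. For the PWK 28 cortex it was 0.772% in KI (0.730% to 0.815%) and 0.679% in WT (0.667% to 0.688%), with no overlap. In PWK 14 cortex it was 0.709% in KI (0.687% to 0.766%) and 0.653% in WT (0.627% to 0.670%), again with no overlap. In hippocampus the KI and WT ranges met at both ages, with means of 0.822% and 0.773% at PWK 14 and 0.820% and 0.774% at PWK 28. At PWK 1 the hippocampal share was 1.10% in KI (1.09% to 1.10%) and 1.03% in WT (1.02% to 1.05%), without overlap, although no gene passed there.

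Few genes of the Arp2/3 complex were called. Of its 10 subunit genes, 0 were called in the cortical comparisons of PWK 14 and PWK 28, and 1 in each of the hippocampal ones, where 5.18%, 22.2%, 15.6% and 15.8% of all genes were called in this order. With 10 genes, the counts of the PWK 14 cortex and of both hippocampal comparisons are near those shares. The hippocampal call at PWK 14 was Actr3b (chr5:25759997-25850688, plus strand), a brain-enriched relative of the Arp3 gene Actr3, with 1880.2, 2432, 2264 and 2219 in the 4 KI libraries and 3138, 3282, 2975 and 3536 in the 4 WT libraries (log2 fold change -0.56, SE 0.087, adjusted p = 0.00376, limma). The library that stood apart was the lowest, and without it the log2 fold change was -0.49 (adjusted p = 0.00192). In cortex at the same age Actr3b overlapped (log2 fold change -0.095, SE 0.072, adjusted p = 0.511), and the genotype effects of the regions differed (interaction -0.46, hippocampus minus cortex, SE 0.12, adjusted p = 0.0429, limma), a call that was lost without any 1 of 10 of the 16 libraries (adjusted p up to 0.0881). It was also lost with the GC content and length correction and with the replicate number within genotype as a block (adjusted p = 0.0532). At PWK 28 in hippocampus it was at 2617, 2600.2, 3293 and 2666 in KI and 2869, 3157, 2623 and 2921 in WT, which overlap. Actr3 had log2 fold changes between -0.03 and 0.13 in the 4 late comparisons and was called in none.

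Arpc1b (chr5:145114215-145130705, plus strand), the subunit isoform known for its abundance in blood and immune cells, was the hippocampal call at PWK 28, with 690.0, 521, 582 and 564 in the 4 KI libraries and 306, 367, 389 and 412 in the 4 WT libraries (log2 fold change 0.68, SE 0.11, adjusted p = 0.0024, limma). In the same comparison 7 of 10 microglial markers were called higher, and their part in this result was not tested. In PWK 14 hippocampus it had 1569, 395, 563 and 611 in the 4 KI libraries, with 1569 in the library that stood apart. The 4 WT libraries had 362, 333, 465 and 328 (log2 fold change 0.88, SE 0.35, adjusted p = 0.122, limma). Without the library that stood apart the log2 fold change of Arpc1b was 0.48 (adjusted p = 0.0813, limma). In PWK 28 cortex it was at 368, 309.8, 335 and 309 in KI and 373, 424, 274 and 342 in WT, which overlap, and its genotype effect differed between the regions (interaction 0.76, hippocampus minus cortex, SE 0.18, adjusted p = 0.0229, limma), a call lost without WT replicate 1 of either region (adjusted p up to 0.053). Its paralogue Arpc1a, the more abundant of the pair per kb, had log2 fold changes of -0.17 (adjusted p = 0.0856) and -0.026 in hippocampus. The other 7 subunit genes, Actr2, Arpc2, Arpc3, Arpc4, Arpc5, Arpc5l and Actr3, were called in no KI comparison. Arpc5 and its relative Arpc5l were between -0.16 and 0.13 in the late comparisons. Among the activators, Cttn fell in PWK 28 hippocampus, with 4149, 4209, 4546 and 3949 in the 4 KI libraries and 4802, 4909, 4855 and 4805 in the 4 WT libraries (log2 fold change -0.20, SE 0.047, adjusted p = 0.0149). It had 2860.0, 2718, 3067 and 2580.0 in the 4 KI libraries and 3416, 3257, 3089 and 3196 in the 4 WT libraries in PWK 14 cortex without passing (log2 fold change -0.21, SE 0.063, adjusted p = 0.0856). Wasl was called in no KI comparison.

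The formin Diaph1, which encodes the GTPase effector mDia1 and lengthens unbranched filaments, fell in 3 of the 4 late comparisons. In PWK 14 hippocampus it had 1345, 1546, 1574 and 1575 in the 4 KI libraries and 2229, 2161, 2199 and 2412 in the 4 WT libraries (log2 fold change -0.58, SE 0.069, adjusted p = 0.00145, limma). Without the library that stood apart, its lowest KI value, the log2 fold change was -0.52 (adjusted p = 0.000588). In PWK 28 hippocampus it had 1578, 1738, 1697 and 1910.4 in the 4 KI libraries and 2038, 1996, 2152 and 2089.7 in the 4 WT libraries (log2 fold change -0.26, SE 0.061, adjusted p = 0.0151). In PWK 28 cortex it had 1303, 1511, 1457 and 1712 in the 4 KI libraries and 1936, 1870.0, 1841 and 1827 in the 4 WT libraries (log2 fold change -0.33, SE 0.08, adjusted p = 0.0158). The KI libraries were lower than every WT library in each of these comparisons, and also in PWK 14 cortex, where the adjusted test was not passed (log2 fold change -0.31, SE 0.09, adjusted p = 0.0777). These 3 calls were kept in each alternative fit and without any single library. The other formins, Diaph2 and Fmnl2, and the Ena/VASP genes Enah, Vasp and Evl had 0 calls. Evl in PWK 28 cortex was nearest (log2 fold change -0.20, SE 0.064, adjusted p = 0.0503), with KI libraries at 1925, 2141, 2184 and 1872 and WT libraries at 2267, 2277, 2376 and 2373. Vasp in PWK 14 hippocampus was at 575, 248, 361 and 347 in KI, with the highest value in the library that stood apart, and 284, 287, 303 and 243 in WT.

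Of the genes that cap and sever filaments, Capzb, the beta subunit of capping protein, rose at PWK 28 in both regions. It had 5897, 5175, 5615 and 5119 in the 4 KI libraries and 4399, 4674, 4534 and 4327 in the 4 WT libraries in cortex (log2 fold change 0.28, SE 0.059, adjusted p = 0.00813, limma) and 6226, 6059, 6519.7 and 5964 in the 4 KI libraries and 5167, 5411, 5173 and 5345 in the 4 WT libraries in hippocampus (log2 fold change 0.23, SE 0.042, adjusted p = 0.00418). The partner subunit gene Capza2 was not called (cortex at PWK 28 0.13, adjusted p = 0.0621). Gsn rose in PWK 28 hippocampus, with 2627, 1996, 2667 and 2347 in the 4 KI libraries and 1754, 1742, 1918 and 1909 in the 4 WT libraries (log2 fold change 0.39, SE 0.086, adjusted p = 0.0115). In cortex it was at 1499, 1654, 1411 and 1428 in KI and 1847, 1588, 1439 and 1561 in WT, and the regions' genotype effects differed (interaction 0.49, hippocampus minus cortex, SE 0.13, adjusted p = 0.0363, limma; lost without any 1 of 12 of the 16 libraries, adjusted p up to 0.0771). With the replicate number within genotype as a block the adjusted p of that interaction was 0.0643. In PWK 14 hippocampus Gsn did not pass with all libraries (log2 fold change 0.46, SE 0.14, adjusted p = 0.0589) and passed without the library that stood apart, which at 3031 was the highest (log2 fold change 0.31, adjusted p = 0.0416).

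Small differences were seen in the GTPases upstream. Rhoa, the GTPase that acts on formins and LIM kinases, had 3827, 3923, 3866 and 3866 in the 4 KI libraries and 3399, 3520.5, 3509 and 3590.0 in the 4 WT libraries in PWK 28 hippocampus (log2 fold change 0.14, SE 0.039, adjusted p = 0.0281, limma), small but with no overlap; the call was lost after scaling to equal totals (adjusted p up to 0.0899 among these fits) and without any 1 WT library or KI replicate 2 or 3 (up to 0.0923). At PWK 14 there it had 5160.4, 3832, 3912 and 3885 in the 4 KI libraries and 3415, 3316, 3437 and 3409 in the 4 WT libraries (log2 fold change 0.29, SE 0.093, adjusted p = 0.0597), and without the library that stood apart, again the highest, it was called (log2 fold change 0.19, adjusted p = 0.0229). Cdc42, the GTPase that acts on N-WASP and PAKs, had 8283, 7965, 8611 and 7727 in the 4 KI libraries and 7436, 7097, 6873 and 7106 in the 4 WT libraries in PWK 28 hippocampus (log2 fold change 0.19, SE 0.045, adjusted p = 0.0157). In PWK 28 cortex its log2 fold change was 0.20 (adjusted p = 0.0533) with groups that did not overlap. Pak1, Pak2 and Pak3, the kinases between Cdc42 and LIM kinase, were called in no KI comparison. The closest to the threshold was Pak3 in PWK 28 cortex (log2 fold change -0.21, SE 0.07, adjusted p = 0.0581).

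The genotype effects at PWK 28 were also set against those at PWK 14 by the interaction of genotype and age. None of the 39 genes, and 0% of all genes, passed in either region by limma. At an unadjusted p under 0.05, 9 of the 39 passed in cortex and 5 in hippocampus, where 15.1% and 12.4% of all genes did. The smallest adjusted p was 0.156 in cortex, for Cfl1 (0.37), and 0.153 in hippocampus, for Actr3b (0.51). For genotype by region, 2.85% of all genes were called at PWK 14 and 4.57% at PWK 28, and the members called were Actr3b at PWK 14 and Arpc1b, Gsn and Tmsb4x at PWK 28.

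Markers of other cell types moved with genotype in the same tissues. In PWK 28 hippocampus, 4 of 8 astrocyte markers were called higher in KI and their summed level was 194968 to 227002 in KI and 140285 to 149595 in WT. There 7 of 10 microglial markers were called higher, with sums of 17428 to 21762 in KI and 14363 to 15372 in WT, and 3 of 6 inhibitory neuron markers (21820 to 24956 and 17556 to 19455). In PWK 14 hippocampus, 2 of 8 astrocyte and 0 of 10 microglial markers were called, with sums of 212022 to 338279 against 139149 to 165521 and of 13577 to 42598 against 12238 to 14645, and 3 of 6 excitatory neuron markers were called lower. The mural sum there was 4485 to 8014 in KI and 3965 to 4306 in WT, with 0 of 5 markers called. Among cortical libraries of PWK 28, 4 of 6 inhibitory neuron markers were called higher and 1 lower (sums 30088 to 45055 in KI and 21703 to 27856 in WT), while the microglial sum was 14525 to 15372 in KI and 13943 to 16267 in WT. All 5 blood markers were called lower there, with sums of 3255 to 6609 in KI and 8514 to 9786 in WT. In PWK 14 cortex, 4 of 6 inhibitory neuron markers were higher and 1 lower, and 3 of 6 endothelial markers were lower. The oligodendrocyte sum (9 markers) was 144612 to 194805 in KI and 132009 to 160161 in WT in PWK 28 hippocampus. In PWK 28 cortex it was 89895 to 117731 in KI and 108374 to 163239 in WT. The ranges overlapped in both regions. No marker on these lists was at 0 in all libraries of a group. The part of these shifts in the changes of Arpc1b, Gsn, Tmsb10, Dstn, Rhoa and the other genes was not tested.

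A further 107 actin genes, from a list of regulators, bundling and linking proteins, other formins and small GTPase signalling, were counted in the same fits. In PWK 14 cortex, 10 were called (3 higher, 7 lower), which is 9.35% of them against 5.18% of all genes. The furthest were the kinase gene Pak6 (log2 fold change -0.73), the formin Fmnl1 (-0.40) and the spine protein gene Ppp1r9b, encoding neurabin-2 (-0.39), among the lower, and Tpm1, a tropomyosin that coats filaments (0.71), the crosslinker Flna (0.51) and Wipf3 (0.50) among the higher. At PWK 28 in the same region, 33 were called (15 higher, 18 lower), 30.8% against 22.2% of all genes (28% of those with at least the mean of the least abundant of the 39). Pak6 had 1214, 1581, 1169.9 and 1053 in the 4 KI libraries and 2556, 2239, 2576 and 2607 in the 4 WT libraries (log2 fold change -1.01, SE 0.11, adjusted p = 0.000391, limma). Tpm1 had 15307, 8371, 12336 and 8726 in the 4 KI libraries and 5207, 5265, 5587 and 5097 in the 4 WT libraries (log2 fold change 1.04, SE 0.16, adjusted p = 0.00184). The KI and WT libraries of both were apart. Marcksl1, a membrane linker (-1.08), and Fmn1 (-0.78) were lower, and Avil (1.98) and Rhoc (1.28) higher; Avil, a villin relative, was low at 36, 21.6, 45.3 and 33.8 in the 4 KI libraries and 6.65, 9.97, 5.71 and 8.87 in the 4 WT libraries.

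In hippocampus 23 of the 107 were called at PWK 14 (13 higher, 10 lower) and 29 at PWK 28 (20 higher, 9 lower). These are 21.5% and 27.1% of them, against 15.6% and 15.8% of all genes. Among genes with at least the mean of the least abundant of the 39, the shares were 20.1% and 20.2%. Some of the 107 lie under that mean, so this background is not matched to them. Without the library that stood apart the count at PWK 14 was 29 (18 higher, 11 lower), where calls over all genes went from 2870 to 3205. Msn, the membrane linker moesin, had 5536, 1624, 1684 and 1736 in the 4 KI libraries and 866, 915, 973 and 988 in the 4 WT libraries at PWK 14 (log2 fold change 1.28, SE 0.35, adjusted p = 0.0353, limma). Its highest value was in the library that stood apart, and without it the log2 fold change was 0.85 (adjusted p = 0.000145). Msn was higher at PWK 28 too (log2 fold change 0.64, SE 0.078, adjusted p = 0.000423), and Scin, a gelsolin relative, lower at both ages (-1.96 and -1.65). Scin was low, with 5.66, 13.5, 8.05 and 8.43 in the 4 KI libraries and 34.4, 29.7, 25.5 and 26.3 in the 4 WT libraries at PWK 28. At PWK 14 Svil (0.92) and Inf2 (0.80) were higher and Rac3 (-0.56) and Wipf2 (-0.49) lower. At PWK 28 Capg (0.80) and Tpm1 (0.66) were higher and Marcksl1 (-0.43) and Actn2 (-0.41) lower. Of the 14 genes of the WAVE complex and Rac, the setting in which CYFIP2 works, 0 and 3 were called in the cortical comparisons of PWK 14 and 28, and 1 and 1 in the hippocampal ones. The shares of all genes were 5.18%, 22.2%, 15.6% and 15.8%. At PWK 1 and PWK 7 none of the 107 was called. At an unadjusted p under 0.05 in limma, 2, 13, 8 and 6 passed for PWK 1 cortex, PWK 7 cortex, PWK 1 hippocampus and PWK 7 hippocampus. Of all genes 5.27%, 8.05%, 5.46% and 6.22% passed, in the same order.

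Length and promoter sequence were examined across the 39 genes as a description. The median merged exon length of called genes was 2658 bases for the 9 higher and 6219 for the 2 lower in PWK 28 cortex. It was 1911 (3 higher) and 6099 (3 lower) in PWK 14 hippocampus, and 3062 (10 higher) and 6099 (3 lower) in PWK 28 hippocampus. Limk2 and Diaph1 are among the lower genes each time. By merged exon length single genes went the other way: Limk1 (7162 bases) and Rhoa (7494) were called higher and Actr3b (2425) lower. The longest protein-coding transcripts were shorter, with 3331 bases for Limk1, 2197 for Rhoa and 2031 for Actr3b. Those of Limk2 and Diaph1 had 3711 and 5741, so the order of genes depends on the length used. Spearman's rank correlation between the log2 fold change and exon length was -0.37 in PWK 28 cortex, -0.10 in PWK 14 hippocampus and -0.42 in PWK 28 hippocampus, over 39 genes measured in the same libraries, and it was also -0.41 in PWK 1 hippocampus, where no gene was called. Promoter windows (250 bases before to 50 after the start, RefSeq) were at hand for 33 of the 39 genes. Actb, Actr3b, Arpc5l, Cttn, Diaph1 and Pak2 had none, so their motifs are unknown here. Searched on both strands, GGGCGG was in 29 of the 33 genes. It was in 38.2% of the 27025 genes with a window, which include genes outside the expression table. CCAAT was in 10 of the 33 and in 41.1%, and TATAAA in 2 (Cdc42 and Rhoa) and in 15.7%. The CArG box, known as the binding sequence of serum response factor, was in 2 (Actg1 and Arpc4) and in 1.81%. The stretch before Actg1 is shown because it holds 3 of these motifs, in capitals, and Actg1 was among the genes that rose at PWK 28 (GRCm38.p6, chr11:120348543-120348642, minus strand, 147 to 48 bases before the RefSeq start, with no base in the GENCODE gene).
Actg1 upstream: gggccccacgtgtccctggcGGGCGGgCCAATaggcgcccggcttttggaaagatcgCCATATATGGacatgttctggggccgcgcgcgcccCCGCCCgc
The capitals mark, in order, the first of these motifs, the second, the CArG box and the first again on the other strand. Whether any factor binds there was not measured in these data.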

How the data were processed

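The authors deposited normalized read counts per gene, a coverage signal that they made from Salmon 0.11.2 estimates and divided by DESeq2 1.19.11 size factors under R 3.6.0, per the labels, on GRCm38. The study's methods give other versions of these tools and a different name of the library kit. Values are comparable between libraries as far as the size factors are right, and the counts before scaling, hence the depth, are unknown. Libraries were grouped by the genotype, region and age in the labels. Here log2(value + 1) was tested with limma 3.58.1 in R 4.3.3 (trended variance, two-sided) for genes with a mean of at least 1 in the libraries compared, a separate fit for each comparison, with Benjamini-Hochberg adjustment over all genes tested and a threshold of 0.05. The script was tested on simulated data. Interactions of genotype with region or age used the 16 libraries concerned. The alternatives were pseudocounts of 0.5 and 10, no filter, a minimum mean of 10, scaling to equal totals, a GC content and length correction (a spline with 5 degrees of freedom), all 64 libraries in 1 fit, the replicate number as a block (within genotype for genotype by region), sample quality weights, and each library left out. Of the 18432 gene identifiers, 18420 matched GENCODE vM21. Python 3.11.15, pandas 2.3.3 and Biopython 1.88 served for values and sequences. The 39 genes, the 107 others and the marker lists were chosen with earlier results of these data known. Named are every one of the 39 genes called in a KI comparison or interaction, up to 4 per direction in each WT comparison, the paralogue pairs whatever their calls, and up to 3 per direction of the other actin genes. Cortex and hippocampus libraries of the same number paired in WT at PWK 1, by the correlation of their deviations (all 4 pairs above 0.1). No protein sequence was used here.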

Additional observations from a re-analysis of the deposited data

Results flagged for a closer look

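Among the genes called in a late comparison, the spread of the 4 libraries was examined in 62 groups, and in 2 of them a single library lay far from the other 3, where chance gives such a library in about 1 of 20 groups. Diaph1 in KI hippocampus at PWK 14 was 1345 in replicate 1 and 1546 to 1575 in the other 3, and this library also stood apart in the whole table. Cfl1 in WT hippocampus at PWK 28 was 15613 in replicate 3 and 16480.0 to 16593 in the other 3.

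The genotype effect of 4 genes differed between the regions by the interaction test in limma, hippocampus minus cortex on the log2 scale. For Actr3b at PWK 14 the difference was -0.46 (adjusted p = 0.0429): KI was lower than WT in hippocampus and overlapped it in cortex. At PWK 28 it was 0.49 for Gsn (adjusted p = 0.0363) and 0.76 for Arpc1b (adjusted p = 0.0229), both higher in KI in hippocampus and overlapping in cortex. For Tmsb4x at PWK 28 it was -0.36 (adjusted p = 0.0243), with KI above WT in cortex and overlapping in hippocampus.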

How the results depend on the processing

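No value of a named gene reversed under any alternative, and of 1647 refitted values of named genes 1547 kept the call and 100 lost it, 79 of them among 792 with 1 library left out. The number of the 39 genes called in cortex at PWK 14 was 1 as reported and 3 with scaling to equal totals, 2 with the GC content and length correction, 11 with all 64 libraries in 1 fit and 3 with sample quality weights. Calls over all genes there were 951 as reported and 896, 1078, 1952 and 1153 in these fits, in the same order. In cortex at PWK 28 the count of the 39 genes was 11 as reported, 19 with all 64 libraries and 17 with quality weights. In hippocampus at PWK 14 it was 6 as reported and 18 with all 64 libraries. Over all genes the calls were 4081, 6114 and 4774 in that cortex, and 2870 and 6050 in that hippocampus. For genotype by region at PWK 14 the count of the 39 was 1 as reported, 0 with the GC content and length correction, 9 with all 64 libraries and 2 with quality weights. Over all genes the calls were 525, 558, 2000 and 1027 in the same order. For genotype by age it was 0 as reported, 3 with all 64 libraries and 3 with quality weights in cortex, and 4 with all 64 libraries in hippocampus; the cause was not tested.

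With 1 library left out the counts ran from 1 to 2 in cortex and 4 to 8 in hippocampus at PWK 14, from 8 to 15 and 10 to 16 at PWK 28, and stayed at 0 at PWK 1 and 7. Calls over all genes ran from 339 to 1001 and 1456 to 3205 at PWK 14. At PWK 28 they ran from 2782 to 5090 and 1881 to 2880. Among WT libraries they ran from 35 to 37 (PWK 7 against 1) and 8 to 11 (PWK 28 against 7) in cortex, and from 30 to 32 and 5 to 10 in hippocampus, and between the regions from 13 to 21, 26 to 28, 21 to 25 and 23 to 30 at PWK 1, 7, 14 and 28. For genotype by region they ran from 0 to 2 at PWK 14 and 0 to 4 at PWK 28 (0 without WT hippocampus replicate 1), and for genotype by age from 0 to 2 in cortex (2 without KI replicate 2 of PWK 28) and 0 to 0 in hippocampus.

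With the replicate number as a block the counts at PWK 14 were 2 for cortex and 4 for hippocampus, and those at PWK 28 were 12 for cortex and 13 for hippocampus. Over all genes 711, 1788, 3513 and 2388 were called with the block, in the same order, and 951, 2870, 4081 and 2911 as reported. The block ended the calls of Limk2 (adjusted p = 0.0564) and Cfl1 (0.0657) in PWK 14 hippocampus, Rhoa in PWK 28 hippocampus (0.0724), Ssh2 in WT cortex (0.0874), and of Actr3b (0.0532) and Gsn (0.0643) for genotype by region, all in limma, and no other call of a named gene. The labels do not say what a number marks. Over 12819 genes, KI and WT libraries of the same number deviated together with r above 0.1 in 10 of 32 pairs (mean r 0.026), so for genotype the samples share only a number. Cortex and hippocampus libraries did so in 17 of 32 pairs (mean r 0.140, and -0.046 for different numbers). All 4 pairs passed in WT at PWK 1 (r 0.102 to 0.256), where the block gave 21 calls between the regions instead of 19, and in KI at PWK 28 (0.239 to 0.443), but those of WT at PWK 28 did not (-0.073 to 0.047).

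Over all genes, scaling to equal totals moved the percentage of calls in KI against WT that were higher: 47.8% became 60.4% (PWK 14 cortex), 54.8% became 43.7% (PWK 28 cortex) and 56.3% became 40.6% (PWK 28 hippocampus). With the GC content and length correction 49.0% became 34.4% (PWK 14 hippocampus) and 56.3% became 44.6% (PWK 28 hippocampus). The same scaling moved it in WT from 48.8% to 59.8% in cortex and from 43.1% to 56.9% in hippocampus (PWK 28 against 7), and between regions at PWK 1 from 46.3% to 66.6% (35.9% with the correction). For genotype by region at PWK 14 it went from 57.7% to 47.2% and, with the correction, 44.1%. With 4 libraries a group and unknown depth, small differences in the scarce genes were not detectable.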
